A study of Bactrocera dorsalis with 16 samples.

Results

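In the oriental fruit fly, Bactrocera dorsalis, small RNA of the adult female's fat body was compared between day 13 and day 5 after eclosion, the emergence of the adult from the pupal case. Each day had 2 libraries, and the series' design text calls them biological replicates without saying how many flies went into each, so p-values measure only the spread between these samples. No genotype, strain or treatment is labelled: all flies were kept under the same light cycle and fed the same diet of yeast extract and sugar. The values are normalised signal per mature sequence as the authors deposited it. The comparison covers the 224 sequences, of 747 distinct ones in the table, that reached a value of 10 in at least 2 of these 4 libraries. Of the 224, 169 have names of known miRNAs, and the other 55 have PC names, which ACGT101-miR gives to candidates it predicts. A total of 198 sequences passed through both days, 18 through day 13 alone and 8 through day 5 alone. Of the 18 that passed through day 13 alone 17 were called, and of the 8 that passed through day 5 alone 6 were called. A sequence that passes through 1 day only has to differ, so these calls follow in part from the filter. Fat body of day 1 and ovary of days 1, 5 and 13, with 2 libraries each, entered the fit to estimate the spread, and the ovary gave a second late change to set against that of the fat body.

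The fat body is the insect organ of fat storage and intermediary metabolism, and in adult females it makes the yolk proteins that the ovary takes up. MicroRNAs are short RNAs that are loaded into an Argonaute protein and pair with messenger RNAs, mainly through bases 2 to 8, the seed, which lowers the translation or stability of the target. In Drosophila and in mosquitoes several miRNAs act in the fat body on insulin signalling, amino acid use and egg production.

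The sequences below are those of some of the known miRNAs and candidates described in the text, not all of which were called on every scale. They are read from the deposited table, 5′ to 3′ and written with T, with the seed in capitals. The first set is the miR-34, miR-277 and miR-317 cluster, which are transcribed together in Drosophila. The second set, from miR-252 to miR-274, holds less abundant miRNAs that were higher at day 13, and the third, from miR-276a to let-7, holds abundant ones. The last set holds the pair that shares the miR-92 seed and went opposite ways, and short sequences discussed at the end.
miR-34-5p: tGGCAGTGtggttagctggtt
miR-317-3p: tGAACACAgctggtggtatctc
miR-277-3p: tAAATGCActatctggtacgaca
miR-252: cTAAGTACtagtgccgcaggag
miR-970: tCATAAGAcacacgcggctat
miR-284: gTCAGCAActtgattccagcaa
miR-279: tGACTAGAtccacactcatt
miR-274: tTTGTGACcgacactaacgggt
miR-276a: tAGGAACTtcataccgtgctct
miR-1: tGGAATGTaaagaagtatggag
let-7: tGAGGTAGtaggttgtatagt
miR-92a: tATTGCACttgtcccggcctat
miR-92b: aATTGCACtagtcccggcctgc
miR-2779: aTCCGGCTcgaaggacca
PC-3p-36663_319: gCCGGTACaattactttg
PC-3p-33488_357: gGCCGGTAcaattacttt

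Several facts of the libraries bear on every result. The summed signal was 1085885 and 1155602 in the day 13 fat body libraries, against 656505 and 638669 in the day 5 fat body libraries, a ratio of means of 1.73. From the spacing of low values, the libraries came to 921291 and 951767 reads at day 13, against 213847 and 416355 reads at day 5, so that low values are less precise at day 5. A value worth 3 reads was 3.54 and 3.64 at day 13, against 9.21 and 4.6 at day 5. The label of the tissue was set beside miRNAs higher in fat body in earlier results of these data. Since these miRNAs were picked from the same data, they are no independent check of the label. At day 13, miR-8 had 280284 and 274327 in fat body, against 47354 and 36579 in ovary, and miR-252 had 7682 and 7871 in fat body, against 120.5 and 81.4 in ovary. The ovary marker miR-989, which acts in border cell migration in the Drosophila ovary, had 130.8 and 598 in the day 13 fat body libraries, against 899 and 569 in the day 5 fat body libraries. The day 9 libraries are left out of the comparison because their second replicates go against their labels: miR-989 was 1714 and 78237 in the libraries labelled fat body of day 9, against 81674 and 12696 in those labelled ovary of day 9. In bulk tissue a smaller number of cells of a type and less RNA per cell cannot be told apart.

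Of the 224 sequences, 75 changed between the days (limma on log2(value + 1), Benjamini-Hochberg adjusted p under 0.05), which is 33.5% of those tested. A total of 55 were higher at day 13 (24.6%) and 20 were lower at day 13 (8.93%). Because the day 13 libraries sum to more, the same test was made on shares of the library total, where 24 sequences were higher at day 13 (10.7%) and 57 were lower at day 13 (25.4%). For 149 of the 224, 66.5%, the libraries of the days did not overlap, so a lack of overlap alone sets no sequence apart. The median difference of all tested sequences, day 13 minus day 5, was 0.35 on the deposited scale and -0.44 on shares. The same 24 higher and the same 20 lower sequences were called on both scales, and these calls were also made after TMM scaling and after TMM scaling without the 5 most abundant sequences. The other 31 higher calls of the deposited scale were lost on shares, and 37 sequences were lower on shares alone. TMM scaling by itself gave 37 higher and 26 lower calls, and TMM without the 5 most abundant sequences gave 33 higher and 39 lower. Adding the day 9 libraries, whose replicates differ widely, to the estimate of the spread gave 31 calls. Among the sequences then not called were miR-277-3p, miR-276a, miR-1, let-7, miR-8-5p, miR-11, miR-274, miR-92a, miR-92b, miR-278 and the longer form of miR-252 (adjusted p = 0.246, 0.241, 0.445, 0.119, 0.0999, 0.106, 0.303, 0.592, 0.434, 0.337 and 0.069), and most of the falls and end variants described below.

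**Figure D1:**
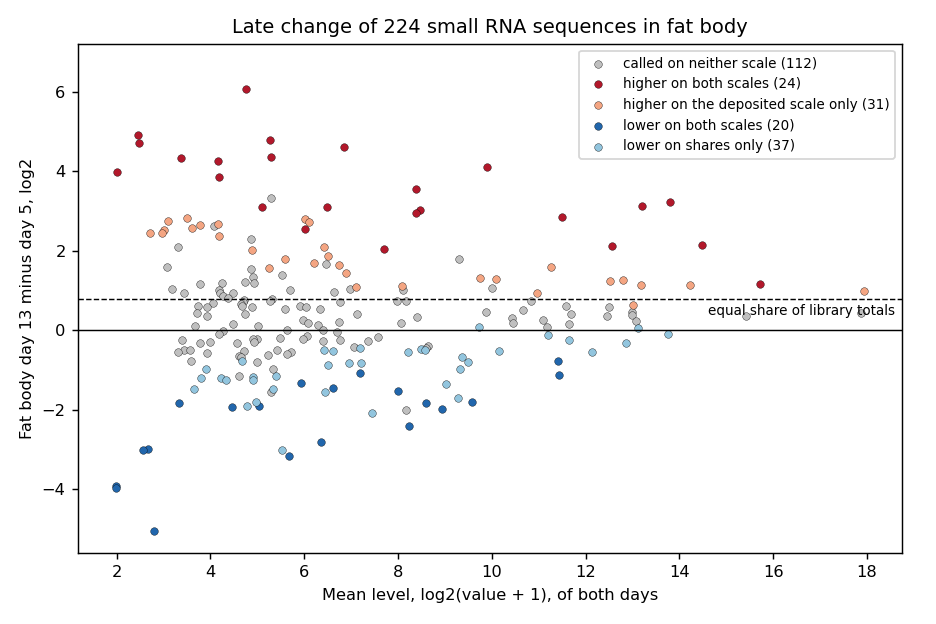
Late change of each of the 224 tested sequences in fat body. The horizontal axis is the mean level of both days as log2(value + 1) and the vertical axis is the difference, day 13 minus day 5, on the log2 scale; the dashed line at 0.79 is the log2 ratio of the library totals. Points are coloured by call: 24 were higher and 20 lower on both scales, 31 were higher on the deposited scale only, and 37 were lower on shares only.

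miR-34-5p and miR-317-3p were among the largest late rises of known miRNAs. In Drosophila, miR-34 is known for its rise with age and for its part in the ageing nervous system. The deposited value of miR-34-5p was 44222 and 42294 in the day 13 fat body libraries, against 4464 and 4852 in the day 5 fat body libraries. Both day 13 libraries lay far above both day 5 libraries, a 9.29-fold difference (log2 3.22, SE 0.24, adjusted p = 2.7e-06). As a share of the library it was 4.07% and 3.66% at day 13, against 0.68% and 0.76% at day 5 (log2 2.43, adjusted p = 3.05e-05). At day 1 the fat body libraries had held 794 and 1121, so the level was higher at each later age than at the one before.

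miR-317-3p, whose known role in Drosophila is in the control of Toll immune signalling, moved in the same way. It had 27538 and 27487 in the day 13 fat body libraries, against 2883 and 3506 in the day 5 fat body libraries. The groups were far apart, with an 8.65-fold difference (log2 3.11, SE 0.20, adjusted p = 1.39e-06). The opposite arm of the same hairpin, miR-317-5p, was at 381 and 468 at day 13, against 110.5 and 93.5 at day 5 (log2 2.04, SE 0.38, adjusted p = 0.0029). Both arms were also higher as shares, by 2.32 (adjusted p = 3.05e-05) and 1.25 (adjusted p = 0.0295) on the log2 scale.

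The third miRNA of the cluster, miR-277-3p, acts in Drosophila on the breakdown of branched-chain amino acids and in mosquitoes on lipid metabolism through insulin-like peptides. Its value was 9345 and 8394 in the day 13 fat body libraries, against 3149.7 and 4555 in the day 5 fat body libraries. That is 2.34-fold higher at day 13 on the deposited scale (log2 1.23, SE 0.23, adjusted p = 0.0029), a smaller difference than for the other pair. On shares the difference was 0.43 and was not called (adjusted p = 0.196), nor was it by edgeR on recovered reads (log2 0.89, adjusted p = 0.0806). It was called after TMM scaling (0.97, adjusted p = 0.0341), after TMM without the 5 most abundant sequences (0.75, adjusted p = 0.0494) and by DESeq2 (0.94, adjusted p = 0.00124). Its course also differed, since the day 1 libraries with 5160.0 and 5753 lay above both day 5 libraries.

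Rarer end variants of miR-34-5p, matched to forms of other insects, were higher on the deposited scale and not called on shares. The mosquito-matched form had 193 and 151 at day 13, against 39.9 and 53.7 at day 5 (log2 1.86, SE 0.52, adjusted p = 0.0209; adjusted p on shares = 0.132). The butterfly-matched form had 49.5 and 31.6 at day 13, against 6.14 and 7.67 at day 5 (log2 2.37, SE 0.69, adjusted p = 0.024; adjusted p on shares = 0.0991) and was also called after TMM scaling (2.10, adjusted p = 0.0464). Each lost its call when any of several fat body libraries was left out, 3 libraries for the first (adjusted p 0.0556 to 0.109) and 4 for the second (0.053 to 0.131).

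The passenger arm miR-34-3p had 418 and 334 in the day 13 fat body libraries, against 255 and 346 in the day 5 fat body libraries. These groups overlapped, and the difference of 0.33 (SE 0.40) had an adjusted p of 0.552, while its sign turned on shares (-0.46, adjusted p = 0.431). Of the 7 tested sequences of the cluster, length variants included, 6 were higher at day 13 on the deposited scale and 3 on shares, with none lower, beside 24.6% and 10.7% of all tested sequences. Of the 6, the butterfly-matched form, passed the floor through day 13 alone. edgeR called 3 of the 7 higher and DESeq2 5, and without the second day 13 library 4 were called. The median difference over the 7 was 2.04 on the deposited scale and 1.25 on shares, beside 0.35 and -0.44 over all tested sequences. Variants of 1 hairpin share their source, and the sum over the cluster's 10 sequences in the table was 7.57% and 6.85% of the library at day 13, against 1.66% and 2.1% at day 5.

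miR-252 is an invertebrate miRNA that acts on growth in Drosophila. Its value was 7682 and 7871 in the day 13 fat body libraries, against 1025 and 1145 in the day 5 fat body libraries. The days did not overlap and differed 7.17-fold (log2 2.84, SE 0.29, adjusted p = 4.8e-05). On shares the difference was 2.05 (adjusted p = 0.00126). The form that is longer by 1 base at the 3′ end rose as well, with 998 and 993 at day 13, against 95.2 and 156 at day 5 (log2 3.02, SE 0.53, adjusted p = 0.00175). At day 1 miR-252 had 1229.6 and 995, and both day 5 values lay between these.

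Less abundant miRNAs rose by a similar factor. miR-970 had 1045 and 808 in the day 13 fat body libraries, against 98.2 and 141 in the day 5 fat body libraries (log2 2.95, SE 0.41, adjusted p = 0.000513). miR-284, which in Drosophila is known for its effect on glutamate receptors at synapses, had 289.9 and 216 at day 13, against 18.4 and 42.9 at day 5 (log2 3.11, SE 0.51, adjusted p = 0.00138). Both were higher in every day 13 library than in any day 5 library and were also called on shares, at 2.16 (adjusted p = 0.00325) and 2.32 (adjusted p = 0.00815). For each, the day 1 values of 333 and 303 (miR-970) and of 98.4 and 51.4 (miR-284) lay above those of day 5, so that day 5 was the lowest of these 3 ages.

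miR-14 restrains fat storage and cell death in Drosophila and was already abundant at day 5. It had 52695 and 43283 in the day 13 fat body libraries, against 9517 and 12137 in the day 5 fat body libraries. The difference was 4.44-fold (log2 2.15, SE 0.22, adjusted p = 4.8e-05), and its share was 4.85% and 3.75% at day 13, against 1.45% and 1.9% at day 5 (log2 1.36, adjusted p = 0.00153). Its forms longer by 1 and by 2 bases were not called on the deposited scale (log2 1.05 and 1.01, adjusted p = 0.0575 and 0.251) or on shares (0.26 and 0.24, adjusted p = 0.66 and 0.826). The opposite arm, miR-14-5p, was not called on the deposited scale (-0.45, adjusted p = 0.397) and was lower on shares (-1.23, adjusted p = 0.0402). miR-279, a regulator of JAK/STAT signalling in Drosophila, had 12681 and 12239 at day 13, against 3269 and 2522 at day 5 (log2 2.12, SE 0.35, adjusted p = 0.00138). It too was higher on shares (1.33, adjusted p = 0.00912), and its day 1 values of 8465 and 6211 lay above those of day 5.

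miR-274, known from Drosophila glia and airway growth, was at 3889 and 4649 in the day 13 fat body libraries, against 1243 and 1579 in the day 5 fat body libraries. It was called on the deposited scale (log2 1.60, SE 0.35, adjusted p = 0.00559). On shares the difference of 0.81 was not called (adjusted p = 0.0894). At day 1 it had 662 and 708, so its values were higher at each later age than at the one before.

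**Figure D2:**
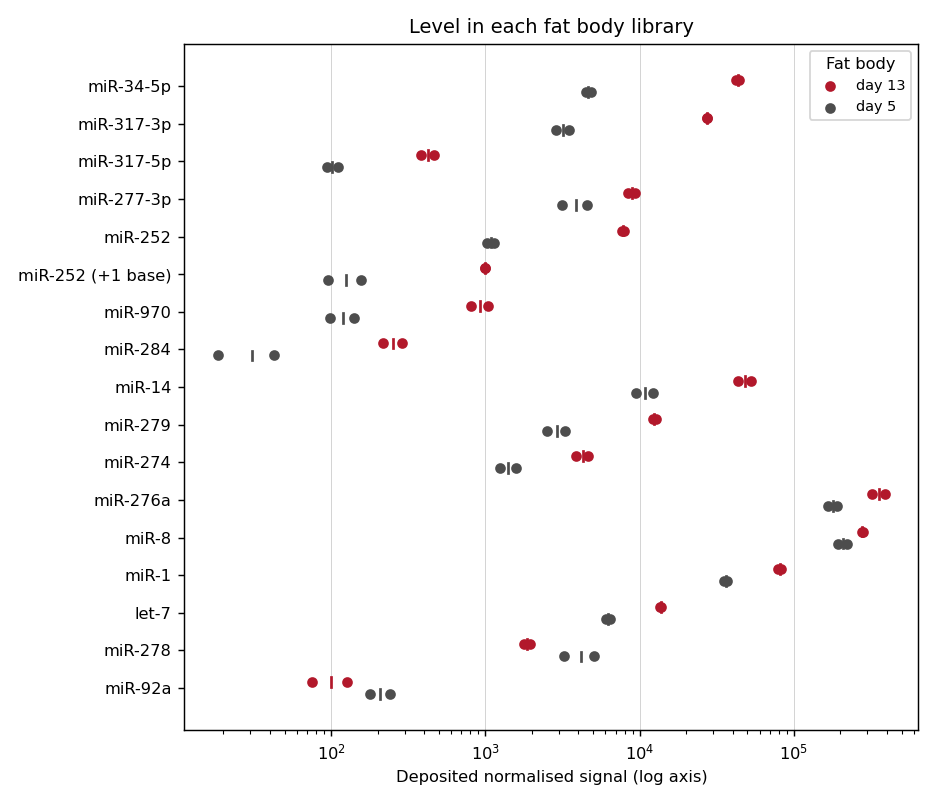
Deposited normalised signal of 17 named sequences in each fat body library, on a log axis. Points are single libraries, short vertical lines the mean of 2, and day 13 is drawn above day 5 for each sequence. The day 13 points of miR-34-5p (44222 and 42294) lie well to the right of the day 5 points (4464 and 4852), those of miR-8 lie close together, and those of miR-278 and miR-92a lie to the left of the day 5 points.

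**Figure D3:**
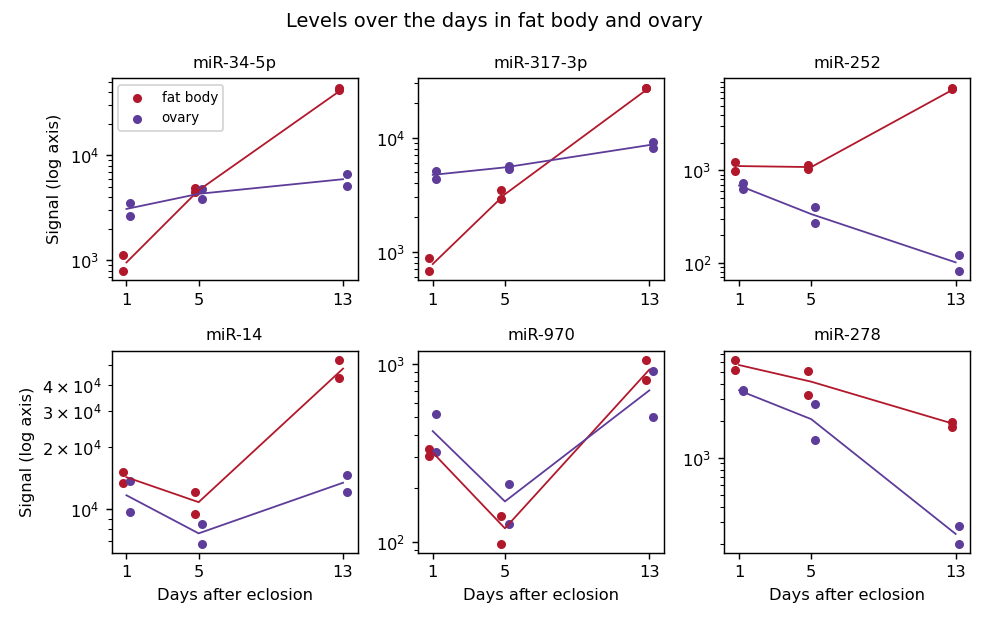
Deposited normalised signal of 6 miRNAs at days 1, 5 and 13 after eclosion in fat body and ovary, on log axes. Points are single libraries and lines join the means of 2. In fat body miR-34-5p and miR-317-3p are higher at each later age, miR-970 is lowest at day 5, and miR-278 is highest at day 1 and lowest at day 13.

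A further group of known miRNAs rose on the deposited scale without a call on shares. miR-283, which in Drosophila is transcribed with miR-304, had 1521 and 1876 in the day 13 fat body libraries, against 629 and 768 in the day 5 fat body libraries (log2 1.28, SE 0.25, adjusted p = 0.00344; 0.49 on shares, adjusted p = 0.176). miR-304 had 11910.2 and 8675 at day 13, against 7349 and 5878 at day 5 (log2 0.63, SE 0.20, adjusted p = 0.0345; -0.16 on shares, adjusted p = 0.568). The call of miR-304 was lost without the second day 5 library (adjusted p = 0.178) or the first day 13 library (adjusted p = 0.243), and its sign turned on shares.

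miR-375, a miRNA of hormone-secreting cells in vertebrates, had 1391 and 1329.8 in the day 13 fat body libraries, against 510 and 589 in the day 5 fat body libraries (log2 1.31, SE 0.41, adjusted p = 0.0322). It was not called when any of these 4 libraries was left out (adjusted p 0.0754 to 0.132). The 3′ arm of miR-988 had 133.2 and 123 at day 13, against 55.3 and 27.6 at day 5 (log2 1.68, SE 0.47, adjusted p = 0.0196). It lost its call without the second day 5 library (log2 1.19), the first day 13 library (1.62) or the second (1.74). miR-995 had 192 and 208 at day 13, against 107 and 81.2 at day 5 (log2 1.09, SE 0.34, adjusted p = 0.0322), and none of the 4 could be left out with the call kept (adjusted p 0.0532 to 0.14).

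The most abundant miRNAs carried most of the larger total. Of the gain of 473157 in mean summed signal at day 13, 37.4% came from miR-276a, 14.8% from miR-8, 9.46% from miR-1, 8.16% from miR-34-5p and 7.85% from miR-14. These 5 sequences together made up 77.6% of the gain. In mosquitoes miR-276 acts on amino acid metabolism in the fat body during egg production, and in Drosophila miR-8 acts on insulin signalling in the fat body.

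miR-276a had 320855 and 390061 in the day 13 fat body libraries, against 191221 and 165739 in the day 5 fat body libraries. That is 1.99-fold higher (log2 0.99, SE 0.17, adjusted p = 0.00167). As a share of the library it was 29.6% and 33.8% at day 13, against 29.1% and 25.9% at day 5, and this difference was not called (log2 0.20, adjusted p = 0.2). At day 5 miR-8 had been the most abundant sequence in both libraries, and at day 13 miR-276a was.

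miR-8 had 280284 and 274327 at day 13, against 192827 and 222100.5 at day 5. The libraries of the days did not overlap, but the difference of 0.42 (SE 0.23) was not called (adjusted p = 0.172). Its share was 25.8% and 23.7% at day 13, against 29.4% and 34.8% at day 5, so the sign turned on shares (-0.37, adjusted p = 0.229). The opposite arm, miR-8-5p, was 2.42-fold higher on the deposited scale, with 10811 and 11144 at day 13, against 4039.9 and 5107 at day 5 (log2 1.27, SE 0.22, adjusted p = 0.0016), and was not called on shares (0.48, adjusted p = 0.1).

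miR-1, the muscle miRNA of animals, had 79036 and 82675 in the day 13 fat body libraries, against 36961 and 35205 in the day 5 fat body libraries. It was 2.24-fold higher on the deposited scale (log2 1.16, SE 0.15, adjusted p = 0.000441). On shares a difference of 0.37 was still called (adjusted p = 0.0445), with 7.28% and 7.15% at day 13, against 5.63% and 5.51% at day 5. The 6 muscle sequences in the table summed to 7.97% and 7.78% of the library at day 13, against 6.33% and 6.36% at day 5. Of the 4 tested, miR-1 alone was called on either scale, 25% beside 33.5% of all tested sequences on the deposited scale. On shares the other 3 had differences below 0. These were -0.21 for the form longer by 1 base, -0.61 for the form longer by 2 bases and -1.32 for the opposite arm (adjusted p = 0.566, 0.248 and 0.11). What part muscle carried along in the dissection has in these values was not tested.

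let-7, which in Drosophila times the change to the adult, had 13596 and 13851 in the day 13 fat body libraries, against 6091 and 6387 in the day 5 fat body libraries (log2 1.14, SE 0.21, adjusted p = 0.0029). The call was lost on shares (0.35, adjusted p = 0.187). The form longer by 1 base had 283 and 319 at day 13, against 522 and 334 at day 5. It was not called on the deposited scale (log2 -0.47, adjusted p = 0.328) and was lower on shares (-1.26, adjusted p = 0.0162). The opposite arm, let-7-3p, had 82.5 and 89.9 at day 13, against 18.4 and 32.2 at day 5 (log2 1.78, adjusted p = 0.0191). It was not called on shares (1.00, adjusted p = 0.139) or after TMM scaling (1.52, adjusted p = 0.0549). TMM without the 5 most abundant sequences (1.31, adjusted p = 0.0653) and edgeR (1.39, adjusted p = 0.0717) did not call it either, while DESeq2 did. The call was also lost without the first day 5 library (log2 1.39), the first day 13 library (1.84) or the second (1.72). The miRNAs encoded beside let-7 in insects were not called: miR-100 had 3799 and 3674 at day 13, against 2744 and 2217 at day 5 (log2 0.60, adjusted p = 0.0907). For miR-125 the values were 2631 and 2134 at day 13, against 1882 and 2062 at day 5 (log2 0.27, adjusted p = 0.44). The sign of miR-100 and miR-125 turned on shares, to -0.19 (adjusted p = 0.622) and -0.52 (adjusted p = 0.139). miR-11, of the miR-2 seed family that represses the cell death genes reaper, hid and grim in Drosophila, had 26225 and 30658 at day 13, against 12685 and 13331 at day 5. It was called on the deposited scale (log2 1.12, SE 0.22, adjusted p = 0.00324) and not on shares (0.33, adjusted p = 0.176).

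Of the 10 most abundant sequences of either day, 5 besides miR-8 were not called on the deposited scale. miR-184, a regulator of female germline development in Drosophila, had 43761 and 55499 at day 13, against 44019 and 33802 at day 5 (log2 0.35, adjusted p = 0.154; -0.44 on shares, adjusted p = 0.0507). miR-31b had 13342 and 13318 at day 13, against 15524 and 13126 at day 5 (log2 -0.10, adjusted p = 0.685; -0.89 on shares, adjusted p = 0.00469). miR-999 had 8408 and 9557 at day 13, against 10410 and 7080 at day 5 (log2 0.06, adjusted p = 0.815; -0.73 on shares, adjusted p = 0.00885). miR-31b and miR-999 were thus a smaller part of the day 13 libraries, without a called difference in deposited value. miR-275, which mosquitoes need for egg development, had 6883 and 6335 at day 13, against 7665 and 9027 at day 5 (log2 -0.33, adjusted p = 0.283), and was lower on shares (-1.12, adjusted p = 0.00815). miR-263a, known from gut and sense organs of Drosophila, had 9860 and 8789 at day 13, against 9056 and 6899 at day 5 (log2 0.24, adjusted p = 0.379; -0.55 on shares, adjusted p = 0.0616). miR-305, made from the same precursor transcript as miR-275 in Drosophila, had 8758 and 10444 at day 13, against 6272 and 7635 at day 5 (log2 0.47, adjusted p = 0.204; -0.32 on shares, adjusted p = 0.391).

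Of the 24 higher calls made on both scales, 20 were also made without each of the 12 libraries, and of the 20 lower calls 4 were. Of these 4 lower calls, api-miR-87a, PC-3p-163208_44 and PC-3p-379324_15 were listed at 0 in both day 13 libraries and passed the filter through day 5 alone. Several of the 20 higher ones, among them PC-3p-36663_319 and PC-5p-23563_549, had passed it through day 13 alone. Such calls follow in part from the filter. miR-278, which sets the insulin response of the fat body in Drosophila, had 1784 and 1949 in the day 13 fat body libraries, against 5053 and 3250.1 in the day 5 fat body libraries. Both day 13 values lay below both day 5 values (log2 -1.12, SE 0.33, adjusted p = 0.0256; -1.91 on shares, adjusted p = 0.00144). Without the first day 5 library the difference was -0.80 (adjusted p = 0.174), and it also lost its call without the first day 13 library (-1.06, adjusted p = 0.106) and the second (-1.18, adjusted p = 0.0652). At day 1 miR-278 had 6197 and 5135, the highest values of the 3 ages.

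Of the 4 tested sequences with the miR-92 seed, 1 rose, 2 fell and 1 was not called on the deposited scale, where 24.6% of all tested sequences rose and 8.93% fell. miR-92a, which in Drosophila acts on leg patterning and on neural precursors, had 74.6 and 126 in the day 13 fat body libraries, against 239 and 178 in the day 5 fat body libraries (log2 -1.08, SE 0.36, adjusted p = 0.0388). miR-92b, with the same seed, had 214 and 170.0 at day 13, against 92.1 and 52.1 at day 5 (log2 1.45, SE 0.33, adjusted p = 0.00689). On shares miR-92a stayed lower (-1.86, adjusted p = 0.0035) and miR-92b was not called (0.66, adjusted p = 0.152). The call of miR-92a was lost without the first day 5 library (adjusted p = 0.193), the second (0.0544), the first day 13 library (0.232) or the second ovary library of day 5 (0.0502), and that of miR-92b without the second day 5 library (0.0538) or the first day 13 library (0.0545).

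A rare sequence matched to miR-92b of a spider differs from miR-92a above only in its last base. Its fall is therefore not independent of that of miR-92a. The sequence had 2.36 and 6.68 at day 13, against 16.9 and 17.4 at day 5 (log2 -1.83, SE 0.63, adjusted p = 0.0427). Leaving out any of 7 of the 12 libraries ended its call.

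miR-263b, known from sense organs of Drosophila, had 23.6 and 9.72 at day 13, against 55.3 and 64.4 at day 5 (log2 -1.90, SE 0.65, adjusted p = 0.0427; -2.63 on shares, adjusted p = 0.00986). Leaving out any of 9 of the 12 libraries ended this call (adjusted p 0.0513 to 0.237). miR-2a, listed in a form with shifted ends, had 2255 and 1899.5 in the day 13 fat body libraries, against 3319 and 3766 in the day 5 fat body libraries. Its fall of 0.77 on the log2 scale sat at the threshold (adjusted p = 0.0494), and 10 of the 12 libraries, left out singly, ended the call. The star strand miR-11593-3p had 64.8 and 49.8 at day 13, against 206 and 120 at day 5 (log2 -1.45, SE 0.40, adjusted p = 0.0205), and was not called without the first day 5 library (-1.06, adjusted p = 0.137) or the second day 13 library (-1.26, adjusted p = 0.103).

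Sequences named after miRNAs of other arthropods were also among the falls. The sequence matched to let-7 of the spider pte had 146 and 148 in the day 13 fat body libraries, against 522 and 349.5 in the day 5 fat body libraries (log2 -1.53, SE 0.47, adjusted p = 0.0289). The sequence matched to miR-100 of the water flea dpu had 407 and 395 at day 13, against 1759 and 1138 at day 5 (log2 -1.82, SE 0.41, adjusted p = 0.00601). The sequence aae-miR-9a had 195 and 205 at day 13, against 954 and 528 at day 5 (log2 -1.82, SE 0.42, adjusted p = 0.00706). All 3 lay lower in both day 13 libraries than in both day 5 libraries, and were also lower on shares, at -2.32, -2.61 and -2.61. They share their seeds with let-7, miR-100 and miR-9c of the fly itself. In fat body of day 1 they had been as low as at day 13, with 98.8 and 140.0 for the let-7 form, 272 and 410.3 for the miR-100 form and 132 and 231 for aae-miR-9a. In the ovary they fell as well, by 1.32, 1.48 and 1.74 on the log2 scale (adjusted p = 0.0368, 0.0105 and 0.00532). Each lost its call without the first day 5 library, at adjusted p of 0.16 for the let-7 form, 0.061 for the miR-100 form and 0.0803 for aae-miR-9a, and the let-7 form also without the first (0.101) or second (0.0833) day 13 library. From which genome these forms come was not tested. The miR-9 family as a whole had 2 of 8 members lower and none higher on the deposited scale, where 8.93% of all tested sequences were lower, and 6 lower on shares, where 25.4% were. The 2 were aae-miR-9a and a form of miR-9c longer by 1 base, and the call of that form was lost without any of 8 of the 12 libraries. miR-9c, its most abundant member, had 3898 and 3453 at day 13, against 6401 and 4544 at day 5 (log2 -0.56, adjusted p = 0.0803; -1.35 on shares, adjusted p = 0.00126).

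Of the 45 tested sequences of 18 or 19 bases, shorter than the usual miRNA, 19 were higher and 7 lower at day 13. The filter bears on this count, since 12 of the 19 had passed it through day 13 alone and 4 of the 7 through day 5 alone. Of the 29 short sequences that passed through both days, 7 were higher and 3 lower, 34.5% in all, against 24.9% of the 169 of 20 bases or more. All sequences of 18 or 19 bases in the table together made up 1.06% and 1.25% of the library at day 13, against 1.58% and 0.947% at day 5. Of the 45, 36 were predicted candidates, and the counts describe these libraries with no test of the difference between lengths.

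Candidate PC-3p-36663_319 had 174 and 181 in the day 13 fat body libraries, against 6.14 and 0 in the day 5 fat body libraries, which is under 3 reads in each day 5 library. The fitted difference depends on the constant added before the log: it was 6.06 with 1 (SE 1.31, adjusted p = 0.00546) and 3.88 with 10. Candidate PC-3p-33488_357 starts 1 base earlier on the same run of letters, sharing 17 bases, and had 90.7 and 65.6 at day 13, against 3.07 in each day 5 library (log2 4.26, adjusted p = 0.00638). The pair are therefore not independent.

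PC-3p-37142_314 had 203 and 177 at day 13, against 3.07 and 10.7 at day 5 (log2 4.79, SE 0.95, adjusted p = 0.00344), and PC-3p-77915_119, whose last 9 bases are its first, had 30.6 and 27.9 at day 13 and was listed at 0 in both day 5 libraries. PC-3p-20717_641 had 659.9 and 402 at day 13, against 36.8 and 10.7 at day 5 (log2 4.61, SE 0.92, adjusted p = 0.00344). PC-5p-23563_549 had 198 and 151 at day 13, against 6.14 and 9.2 at day 5 (log2 4.35, SE 0.94, adjusted p = 0.00543). Of the candidates above, PC-3p-36663_319, PC-3p-33488_357, PC-3p-77915_119 and PC-5p-23563_549 had passed the filter through day 13 alone. All 6 candidates were called on shares too and were higher in both day 13 libraries than in both day 5 libraries. PC-5p-1954_8537, the most abundant of these candidates, had 884 and 1309 at day 13, against 147 and 56.7 at day 5 (log2 3.54, SE 0.85, adjusted p = 0.00893), and was not called without the second day 5 library (2.86, adjusted p = 0.0683).

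All 7 tested sequences named after miR-2779 of the silkworm were higher at day 13 on the deposited scale, where 24.6% of all tested sequences were. Of the 7, 4 had passed the filter through day 13 alone and so had to be higher there. On shares 4 of the 7 were called, and edgeR and DESeq2 each called 5. The 7 differ by shifted ends or single bases, so they are not independent. The main form had 2695 and 5032 in the day 13 fat body libraries, against 338 and 135 in the day 5 fat body libraries (log2 4.10, SE 0.82, adjusted p = 0.00344; 3.31 on shares, adjusted p = 0.00831). These values are sums of 2 identical entries. The main form rose in the ovary too (log2 3.78, adjusted p = 0.00251), and a difference between the tissues was not called (0.32, adjusted p = 0.87). Its sequence ends in CCA, as mature transfer RNAs do, and 7 of the 9 tested sequences with that end were these. Per the labels' protocols reads of transfer RNA had been removed, and whether these derive from transfer RNA was not tested. Without the second day 13 library 2 of the 7 were called.

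Predicted candidates and short sequences were among the largest falls. PC-3p-38123_304, of 20 bases, had 14.1 and 17.0 in the day 13 fat body libraries, against 209 and 104 in the day 5 fat body libraries (log2 -3.17, SE 0.95, adjusted p = 0.0286). PC-3p-27304_459 had 21.2 and 38.9 at day 13, against 261 and 169 at day 5 (log2 -2.82, SE 0.74, adjusted p = 0.015). PC-3p-4072_4097 had 192 and 299 at day 13, against 1142 and 800.2 at day 5 (log2 -1.99, SE 0.63, adjusted p = 0.0345). All 3 lost their call without the first day 5 library (adjusted p 0.14, 0.0981 and 0.16) and without the first day 13 library (0.101, 0.09 and 0.149), the first also without the second day 13 library (0.0699), and the last also without the second day 5 (0.0683) or second day 13 library (0.0542). A sequence matched to miR-6497-5p of the silkworm had 152 and 111 at day 13, against 703 and 678 at day 5 (log2 -2.40, SE 0.54, adjusted p = 0.00601) and was called without each of the 12 libraries in turn. These 4 fell in the ovary too (log2 -5.78, -4.796, -4.38 and -3.74; adjusted p = 0.000437, 0.000273, 0.00017 and 0.000168), and a difference between the tissues was not called (adjusted p = 0.16, 0.174, 0.061 and 0.207). Listed at 0 in both day 13 libraries were api-miR-87a, with 82.9 and 12.3 at day 5, PC-3p-163208_44, with 18.4 and 10.7 at day 5, and PC-3p-379324_15, with 15.3 and 13.8 at day 5.

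**Figure D4:**
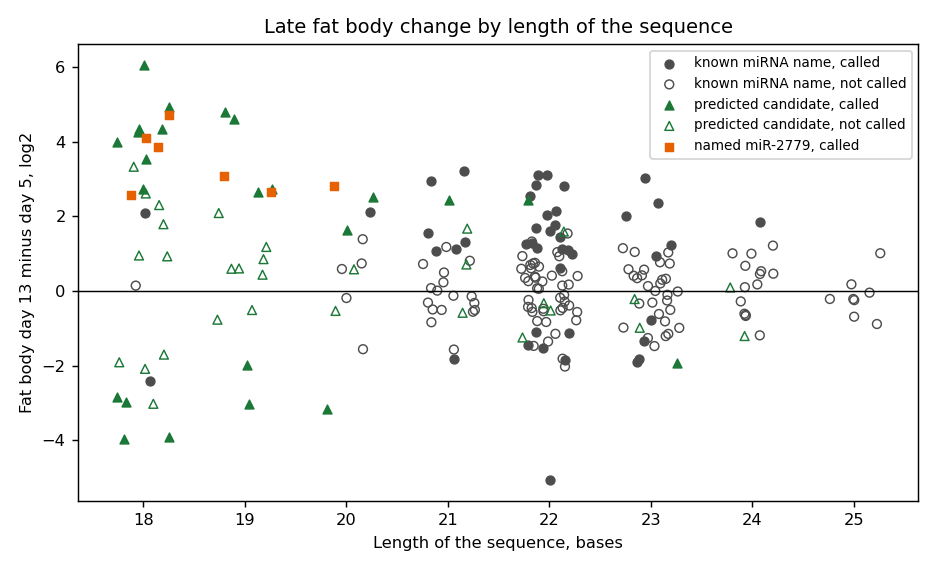
Late change in fat body, day 13 minus day 5 on the log2 scale, against the length of each tested sequence in bases, with a small sideways shift so that points can be seen. Filled points were called and open points were not; circles are known miRNA names, triangles predicted candidates and squares sequences named miR-2779. At 18 and 19 bases 19 of 45 were higher and 7 lower, and the 7 squares lie between 2.58 and 4.72.

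Of the lists of miRNAs, the fat body and metabolism list had 21 tested members, of which 5 were higher and 1 lower at day 13 on the deposited scale, and 1 higher and 4 lower on shares. Its higher members were miR-14, miR-8-5p, miR-277-3p, miR-276a and miR-305-3p, and its lower member was miR-278. The let-7 complex had 2 of 11 members higher and 2 lower, and on shares none higher and 5 lower. The miR-2 family had 3 of 17 higher and 1 lower, and on shares none higher and 3 lower. Without the second day 13 library the let-7 complex had 1 higher and 1 lower, and the miR-2 family 1 higher and none lower. Among the higher members, miR-305-3p lost its call without any of 4 libraries. The 3′ arm of miR-308, which carries the miR-2 seed, lost its call without any of 6. The percentages of members called on the deposited scale in these lists, 28.6%, 36.4% and 23.5%, are set beside the 33.5% of all tested sequences. On shares of the library total, 10.7% of all tested sequences were higher and 25.4% lower. The growth list had 1 tested member, miR-7, with 872 and 862 at day 13, against 887 and 757 at day 5 (log2 0.08, adjusted p = 0.781). On shares miR-7 was called lower (-0.71, adjusted p = 0.0316).

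Markers of other tissues were read in the same fit. The 45 sequences of ovary and early embryo miRNAs in the table summed to 731 and 3051 in the day 13 fat body libraries, against 1788 and 1857 in the day 5 fat body libraries, so that the day 13 libraries differ from each other in what they hold of these. As shares they were 0.0673% and 0.264% at day 13, against 0.272% and 0.291% at day 5. Of the 17 that were tested, miR-92b was higher on the deposited scale. Lower there were miR-92a and the spider-matched sequence that differs from it only in its last base. The called members were 17.6% of those tested, beside 33.5% of all tested sequences. On shares 3 were lower and none higher, where 25.4% of all tested sequences were lower and 10.7% higher. When the second day 13 library, the one with more of this signal, was left out, more of these sequences were called lower. The 11 gut and Malpighian tubule sequences in the table summed to 11119 and 10656 at day 13, against 11190 and 9632 at day 5. None of the 6 tested was called by limma on the deposited scale, with 1 at an unadjusted p under 0.05, 0 called by edgeR and 1 called lower by DESeq2. On shares limma called 3 of the 6 lower, where 25.4% of all tested sequences were. The 9 nerve sequences in the table summed to 535 and 321 at day 13, against 792 and 521 at day 5. On the deposited scale none of the 4 tested was called by limma or had an unadjusted p under 0.05. Neither edgeR nor DESeq2 called any of them. On shares limma called miR-124 lower (log2 -2.32, adjusted p = 0.0445). What part these other tissues have in the late change was not tested.

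The late change of the fat body was set against that of the ovary in the same fit. The difference of the changes, fat body minus ovary, was called for 75 of the 224 sequences, with 36 higher in fat body (16.1%) and 39 lower (17.4%). TMM scaling without the 5 most abundant sequences gave 22 higher and 44 lower. Of the 75 sequences called in fat body, 29 differed between tissues by this test. In the ovary itself, 32 of the 75 were called in the same direction, 8 in the opposite direction and 35 were not called. Of all 224 tested sequences, 105 were called in the ovary (46.9%), with 60 higher and 45 lower at day 13.

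miR-252 showed the largest difference toward the fat body among known miRNAs. It was higher at day 13 in fat body (log2 2.84) and lower at day 13 in ovary, where it had 120.5 and 81.4 at day 13, against 403 and 269 at day 5 (log2 -1.72, SE 0.29, adjusted p = 0.000538). The changes differed by 4.57 (SE 0.41, adjusted p = 1.59e-05). miR-274 and miR-1 went the same opposite ways. miR-274 fell to 18.9 and 27.1 in the ovary at day 13, against 122 and 133.5 at day 5, and its changes differed by 4.04 (SE 0.49, adjusted p = 7.44e-05). miR-1 fell to 3496 and 4427 in the ovary at day 13, against 19901 and 19197 at day 5 (difference of changes 3.48, SE 0.22, adjusted p = 9.63e-07), while for miR-276a the changes differed by 0.95 (SE 0.24, adjusted p = 0.0105). let-7 also fell in the ovary, to 2446 and 3308 at day 13, against 5859 and 4423 at day 5 (difference of changes 1.98, SE 0.30, adjusted p = 0.000361).

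The rises of miR-34-5p and miR-317-3p were larger in fat body than in ovary. In the ovary miR-34-5p had 5166 and 6705 at day 13, against 4747 and 3866 at day 5, and its changes differed by 2.76 (SE 0.34, adjusted p = 7.44e-05). For miR-317-3p the ovary had 8095 and 9162 at day 13, against 5341 and 5654 at day 5, with a difference of changes of 2.46 (SE 0.29, adjusted p = 7.44e-05). miR-14 rose in both tissues and more in fat body (difference of changes 1.34, SE 0.32, adjusted p = 0.00728). For miR-970, miR-284 and miR-279 the ovary rose too, by 2.04, 2.19 and 2.39 on the log2 scale, and a difference between tissues was not called (0.91 with SE 0.57, 0.92 with SE 0.73 and -0.27 with SE 0.49; adjusted p = 0.263, 0.369 and 0.713).

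miR-278 fell in both tissues. In the ovary it had 201 and 281.2 at day 13, against 2723 and 1398 at day 5 (log2 -3.03, SE 0.33, adjusted p = 1.7e-05), and the fall was larger there (difference of changes 1.91, SE 0.47, adjusted p = 0.00879). For miR-8 the change was 0.42 in fat body and 0.43 in ovary, with a difference of -0.01 (SE 0.32, adjusted p = 0.98). The largest differences the other way were of miRNAs of the ovary and early embryo, 16 of whose 17 tested sequences had a lower change in fat body than in ovary. miR-318, for instance, had 24.8 and 273 in day 13 fat body, against 82.9 and 150.2 in day 5 fat body (log2 -0.42, adjusted p = 0.704). In the ovary it had 33506 and 42138 at day 13, against 36.8 and 47.5 at day 5 (difference of changes -10.20, SE 1.17, adjusted p = 7.44e-05). miR-92a, lower at day 13 in fat body, rose in the ovary to 7891 and 8080, against 1873 and 1540.0 at day 5 (difference of changes -3.31, SE 0.50, adjusted p = 0.000344), while miR-92b rose in both tissues, by 1.45 in fat body and 1.52 in ovary.

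**Figure D5:**
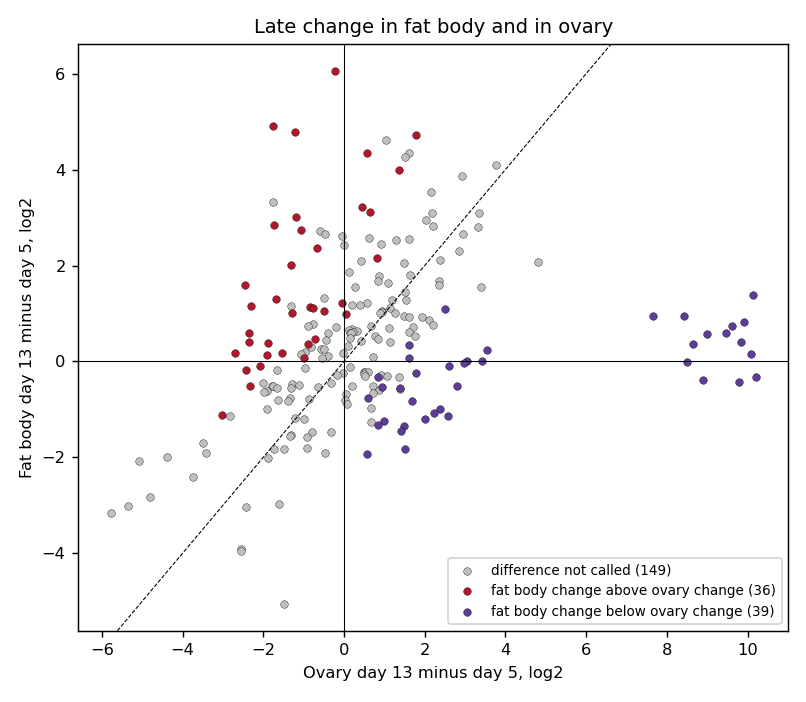
Late change of the 224 tested sequences in fat body (vertical) against that in ovary (horizontal), day 13 minus day 5 on the log2 scale; the dashed line marks equal changes. Coloured points are the 36 sequences whose change was higher in fat body and the 39 whose change was lower; the points far to the right, near 10 in ovary and near 0 in fat body, are miRNAs of the ovary and early embryo such as miR-318.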

How the data were processed

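Small RNA from fat body and ovary of adult female Bactrocera dorsalis was sequenced at days 1, 5, 9 and 13 (8 groups of 2 libraries, 16 in all, grouped by the sample labels). Per the labels' protocols, Trizol was used for extraction and an Illumina small RNA kit for the libraries, and the ACGT101-miR program removed adapter dimers, low-complexity reads, other RNA families and repeats. The deposited table holds normalised signal per mature sequence, marked norm per the file headers. How it was scaled, aligned and annotated is not stated in those sources. The series text speaks of fewer samples than the labels, and the labels were used. Column names matched the sample titles, and 0 columns were left out for lack of a sample.

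The table's 788 entries held 747 distinct sequences; 41 repeated entries with identical values were summed. Values were tested as log2(value + 1) with limma 3.58.1 (R 4.3.3, intensity trend, 6 residual and 5.32 prior degrees of freedom) in 12 libraries of days 1, 5 and 13, as 6 group means, and adjusted by Benjamini-Hochberg over the 224 that reached 10 in 2 or more of the 4 fat body libraries. Folds are of value + 1, and SE is the moderated standard error. With 2 libraries against 2 an exact two-sided permutation test cannot give less than 0.333. Low values were whole multiples of a step within a tolerance of 0.1 in 91.7% to 96.8% of cases in these 12 libraries. Reads recovered with that step served only alternatives with edgeR 4.0.16, which called 55 sequences, and DESeq2 1.42.0, which called 69. These alternatives, and that of sequences of 20 bases or more, were chosen after seeing the data. Reads are without molecular identifiers, and their number limits the precision of low values. The method was tested on simulated data. Replicate libraries were no copies of each other (chi-square per degree of freedom 29.2 to 294).

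The members, lists, tests and naming rule were chosen with earlier results of these data known. Named are, in each direction, up to 12 calls of largest change whose higher group mean reached 100, the 10 most abundant of each day, up to 6 called in each direction for the difference between tissues, and list members or sharers of a seed, picked with their values known. A name's prefix gives the species matched and its suffix the changed bases; the text shortens both. Names from other species and near-identical variants may share reads.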

Additional observations from a re-analysis of the deposited data

Results flagged for a closer look

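The late change differed between fat body and ovary for 75 sequences by the interaction test in limma, and the 12 largest of these with a group mean of at least 100 are given here as values, on the log2 scale, fat body change minus ovary change. Toward the fat body these were PC-3p-36663_319 with 6.27 (adjusted p = 0.0219), PC-3p-37142_314 with 5.995 (adjusted p = 0.00508), miR-252 with 4.57 (adjusted p = 1.59e-05), its form longer by 1 base with 4.22 (adjusted p = 0.00104), miR-274 with 4.04 (adjusted p = 7.44e-05) and PC-5p-23563_549 with 3.78 (adjusted p = 0.0451). The call of PC-5p-23563_549 was lost without 7 of the 12 libraries, left out singly, with adjusted p up to 0.159. That of PC-3p-36663_319 was lost without the first ovary library of day 5 (0.0896), the second fat body library of day 5 (0.0902) or the first ovary library of day 13 (0.0864).

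Toward the ovary they were miR-5b with -10.53 (adjusted p = 0.000188), miR-318 with -10.20 (adjusted p = 7.44e-05), miR-5a-3p with -9.95 (adjusted p = 0.000176), miR-6 with -9.43 (adjusted p = 7.44e-05), miR-994 with -9.27 (adjusted p = 7.44e-05) and miR-309b with -9.10 (adjusted p = 0.000201). None of these 6 was called in fat body alone, where their adjusted p ran from 0.515 to 0.907 and the second day 13 library lay above the first for each.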

How the results depend on the processing

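The number of sequences called between day 13 and day 5 in fat body, 75, became 48 with a floor of 100 (107 tested) and 31 with the day 9 libraries added. Leaving out 1 library at a time gave 45 to 73 calls. The lowest counts came without the first day 5 library (45), the first day 13 library (45) or the second day 13 library (46). The number of differences between tissues, 75, became 46 with a floor of 100 and 29 with day 9 added, and 53 to 78 with 1 library left out. edgeR split its fat body calls into 32 higher and 23 lower, DESeq2 into 40 and 29. Of the calls on all 4 scales that were also made without each of the 12 libraries, several had passed the filter through 1 day alone.

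Some differences changed sign, all but that of miR-304 among sequences not called. On shares of library totals they became -0.37 for miR-8, -0.44 for miR-184, -0.73 for miR-999, -0.55 for miR-263a, -0.46 for miR-34-3p, -0.19 for miR-100, -0.52 for miR-125 and -0.32 for miR-305; for miR-304, called on the deposited scale, it was -0.16. With TMM without the 5 most abundant sequences they became -0.057 for miR-8, -0.13 for miR-184, -0.42 for miR-999, -0.24 for miR-263a, -0.15 for miR-34-3p, -0.21 for miR-125 and -0.012 for miR-305. TMM gave -0.19 for miR-999 and -0.017 for miR-263a. edgeR gave -0.21 for miR-999, -0.026 for miR-263a and -0.012 for miR-125, and DESeq2 -0.23 for miR-999 and -0.036 for miR-263a. With 1 library left out, miR-999 ran from -0.22 to 0.34 and miR-31b from -0.22 to 0.022. Shares take off the larger day 13 total by construction; for the other settings the cause was not tested.

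Replicate numbers are shared by the groups, but the correlation of replicate differences was 0.03 between the fat body groups of days 5 and 13 and ran from -0.55 to 0.50 over 15 pairs of groups, so the numbers were not taken as pairs. With a replicate block 70 sequences were called in fat body and 76 between tissues. With 2 libraries a group, and 213847 and 416355 reads at day 5, small changes of rare sequences were not detectable at this depth.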

Other observations

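The fat body libraries of day 9, which entered no comparison, gave miR-34-5p at 14599 and 4724, miR-317-3p at 11474 and 7254, miR-252 at 1968 and 305.6, miR-14 at 13134 and 14103 and miR-1 at 66875 and 7946. The ovary miRNA miR-994 was at 2139.8 and 81976 in the same libraries. In the first day 9 library miR-34-5p and miR-317-3p lay between the values of days 5 and 13.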
